A study of Rattus norvegicus with 9 samples.

Results

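Genes of the interferon response and of class I antigen presentation were followed in a laryngeal muscle, the posterior cricoarytenoid (which abducts the vocal folds), of rats aged 6, 18 and 30 months. The 9 genes were *Irf7*, *Irf1*, *Mx1*, *Mx2*, *Psmb8*, *Psmb9*, *Tap1*, *B2m* and *RT1-CE16*, and every probe set that the platform's annotation gives to exactly 1 of them was taken, which made 13 probe sets of 8740. Each age had 3 oligonucleotide arrays hybridised with RNA from the combined muscle tissue of 4 animals, so replicates are pools and the spread between them is a spread between pools; p-values measure only that spread. No treatment or genotype separates the ages, 6 months is the youngest age and the baseline of the study, and the labels used here give neither strain nor sex. *Irf7* was chosen because it had passed the test at 30 against 6 months on these arrays, and the other genes were chosen as its usual partners, with *Psmb9* and *RT1-CE16* already known to lie higher at 30 months. The members' values are therefore given as a description, without p-values.

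Interferons are secreted when cells sense viral nucleic acid or are activated by immune signals, and they act through receptors, JAK kinases and STAT factors on a shared set of genes. IRF7 amplifies the production of type I interferon and is itself induced by it, whereas IRF1 is induced mainly by interferon-γ. Downstream lie antiviral proteins such as the Mx GTPases and the machinery of class I presentation. In that machinery PSMB8 and PSMB9 replace catalytic subunits of the standard proteasome, TAP1 is part of the pump that brings peptides into the endoplasmic reticulum, and β2-microglobulin, encoded by *B2m*, pairs with a class I heavy chain such as that of *RT1-CE16*. Resting muscle fibres are known for a low level of class I.

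The promoters below are shown because the members are grouped by a control they are known to share, and each holds a match to an interferon motif. They come from RefSeq's rat assembly GRCr8, which had windows of 300 bases for 8 of the 9 genes, each from 250 bases before to 50 after the transcript start that RefSeq's table uses. A script searched both strands for the core of the interferon-stimulated response element (GAAA, NN and GAAA in a row, N being any base) and for TTCNNNGAA, the gamma-activated site, which reads the same on both strands. Capitals mark the matches. The windows lie at chr1:205799974-205800273 (minus strand) for *Irf7*, chr10:38417685-38417984 (plus) for *Irf1*, chr20:4656982-4657281 (minus) for *Psmb8*, chr20:4668494-4668793 (minus) for *Tap1* and chr3:129549080-129549379 (plus) for *B2m*.
Irf7: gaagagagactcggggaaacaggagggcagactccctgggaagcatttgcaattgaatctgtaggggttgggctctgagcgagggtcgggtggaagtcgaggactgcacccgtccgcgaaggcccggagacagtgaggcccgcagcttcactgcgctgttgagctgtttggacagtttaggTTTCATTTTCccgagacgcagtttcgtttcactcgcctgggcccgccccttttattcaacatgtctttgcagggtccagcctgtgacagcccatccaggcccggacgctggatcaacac
Irf1: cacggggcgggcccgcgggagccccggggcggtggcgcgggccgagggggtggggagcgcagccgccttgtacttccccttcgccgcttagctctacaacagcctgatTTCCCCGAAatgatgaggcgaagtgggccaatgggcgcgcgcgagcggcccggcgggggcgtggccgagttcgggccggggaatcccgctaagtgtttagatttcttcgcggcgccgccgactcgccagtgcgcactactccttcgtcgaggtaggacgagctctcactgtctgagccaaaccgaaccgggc
Psmb8: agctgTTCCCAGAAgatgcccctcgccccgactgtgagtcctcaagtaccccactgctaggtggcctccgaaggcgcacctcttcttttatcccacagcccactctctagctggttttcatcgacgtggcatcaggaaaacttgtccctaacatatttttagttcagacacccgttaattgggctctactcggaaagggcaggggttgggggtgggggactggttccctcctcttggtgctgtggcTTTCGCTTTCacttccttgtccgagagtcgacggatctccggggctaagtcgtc
Tap1: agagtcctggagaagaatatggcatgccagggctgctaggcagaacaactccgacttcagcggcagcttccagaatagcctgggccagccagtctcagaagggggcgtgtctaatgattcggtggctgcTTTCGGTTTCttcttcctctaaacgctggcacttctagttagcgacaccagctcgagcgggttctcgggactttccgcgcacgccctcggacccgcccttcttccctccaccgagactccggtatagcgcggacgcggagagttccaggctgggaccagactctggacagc
B2m: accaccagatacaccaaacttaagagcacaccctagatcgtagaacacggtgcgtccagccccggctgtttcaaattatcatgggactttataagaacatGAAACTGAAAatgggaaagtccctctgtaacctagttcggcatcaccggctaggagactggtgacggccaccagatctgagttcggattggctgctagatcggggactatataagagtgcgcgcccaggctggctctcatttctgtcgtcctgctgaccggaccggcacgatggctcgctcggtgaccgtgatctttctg

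The response element core was found in 4 of the 8 windows, *Irf7*, *Psmb8*, *Tap1* and *B2m*, against 3.92% of all 33469 rat promoters of the same length. TTCNNNGAA was found in 2, *Irf1* and *Psmb8*, against 8.87% of all promoters. The windows of *Mx1*, *Psmb9* and *RT1-CE16*, not printed here, held no match to either motif. In *Irf7* the match lay 69 to 60 bases before the start, and in *B2m* 150 to 141 bases before it. *Tap1* and *Psmb9* stand back to back on chromosome 20, and their windows, on opposite strands, share 44 bases. The match in the *Tap1* window, 121 to 112 bases before the start, lies outside that shared stretch. It still lies between the starts of both genes, beyond the end of the *Psmb9* window. In *Psmb8* it crossed the start, from 4 bases before to 6 after, and the gamma-activated site lay 245 to 237 bases before it. The matches did not overlap, and a match is a description of letters and not of a bound site.

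The arrays were alike in scale, with a 2% trimmed mean signal of 500.9 to 501 and a median of 104.2 to 124.8. Muscle markers were strong at every age: *Ckm*, muscle creatine kinase, read 33084.5 to 48487.6, and *Myh13*, the myosin heavy chain of eye and laryngeal muscle, 10117.2 to 12963.1. Replicate 1 of 30 months stood apart in some immune genes, which were named after their values were seen. *Ccl5*, a chemokine of T cells and an interferon-induced gene, read 1048.1 on that array and 7.8 to 15.8 on the other 8. *Coro1a*, an actin regulator of leukocytes, read 137.7 there and 12.4 to 20.3 elsewhere. The summed signal of 27 leukocyte marker genes was 3967 on that array, against 2358 to 3292 on the other 8. Not every marker was high there: *Cd79b* (26.7, against 49.6 to 127.6) and the weak *Cd3d* (17.2, against 20.4 to 33.6) were lowest on it. The members' differences at 30 against 6 months and the counts of listed genes in that comparison are therefore given with and without that array. Replicate 3 of 18 months and replicate 3 of 30 months stood apart in thyroglobulin, *Tg*, a thyroid marker, at 628.2 and 555.2 against 30.2 to 108.6 on the rest.

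*Irf7* was selected through its probe set rc_AA799861_g_at. That probe set read 76.8, 107.1 and 91.7 at 6 months, 201.9, 158.5 and 176 at 18 months, then 244.3, 230.7 and 201.4 at 30 months. Every array of 18 and of 30 months lay above every array of 6 months, while the lowest array of 30 months lay just under the highest of 18 months. The mean signal was 225.5 ± 21.9 at 30 months and 91.87 ± 15.2 at 6 months (SD, n = 3 arrays each), a ratio of 2.45. On log2(signal + 32), the scale of all differences here, the difference was 1.06 with a standard error (SE) of 0.14, and it was 1.01 without replicate 1 of 30 months. Against 6 months, 18 months was higher by 0.77 (SE 0.14), and against 18 months, 30 months was higher by 0.29 (SE 0.14).

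The other *Irf7* probe set, rc_AA799861_at, from the same transcript sequence, read 110.3, 97.7 and 42.6 at 6 months, 115.8, 109.1 and 150.4 at 18 months, then 122.4, 122.5 and 128.7 at 30 months. Its difference at 30 against 6 months was 0.49 (SE 0.22), or 0.50 without replicate 1 of 30 months. That is less than in the first probe set, and less than in *Tap1* X57523_g_at, *Psmb8*, *Psmb9* D10757_g_at, *Irf1* M34253_at and *RT1-CE16*, described below. Replicate 3 of 6 months was low in it, and without that array the difference was 0.20. The probe sets thus gave the same direction against 6 months and sizes that did not match, and in the second one the difference at 30 against 18 months was 0.00 (SE 0.22).

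*Irf1* encodes the interferon-γ-responsive factor. Its probe set M34253_g_at read 368, 337.4 and 387 at 6 months, 422, 447.3 and 373.1 at 18 months, then 580.4, 398.4 and 431.7 at 30 months. All 3 arrays of 30 months lay above those of 6 months, but replicate 1 of 30 months was far above the others. The difference at 30 against 6 months was 0.33 (SE 0.15) and was 0.18 without that array. M34253_at, whose mean was below the signal filter, read 70.1, 26.7 and 64.6 at 6 months, 29.4, 107.3 and 20.5 at 18 months, then 114.8, 92.4 and 73.8 at 30 months, with a difference at 30 against 6 months of 0.58 and of 0.46 without replicate 1 of 30 months.

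Of the antiviral Mx genes, *Mx1* overlapped between all ages. *Mx1*, whose product lies in the nucleus of rodent cells and acts against influenza-like viruses, read 205.5, 75.5 and 156.8 at 6 months, 190.2, 125.8 and 175.7 at 18 months, then 220.6, 147.8 and 216.5 at 30 months. The difference at 30 against 6 months was 0.41 with an SE of 0.28. Leaving out replicate 1 of 30 months gave 0.32, and leaving out replicate 2 of 6 months gave 0.08. *Mx2*, which encodes a related GTPase, read 17.3 to 45.4 over the 9 arrays and lay below the signal filter. Its difference was -0.10 at 30 against 6 months, with overlap, or -0.05 without replicate 1 of 30 months. At 30 against 18 months it was -0.27, and the highest array of 30 months (23.8) lay just under the lowest of 18 months (24.8). At signals this low no direction is read from these values.

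**Figure D1:**
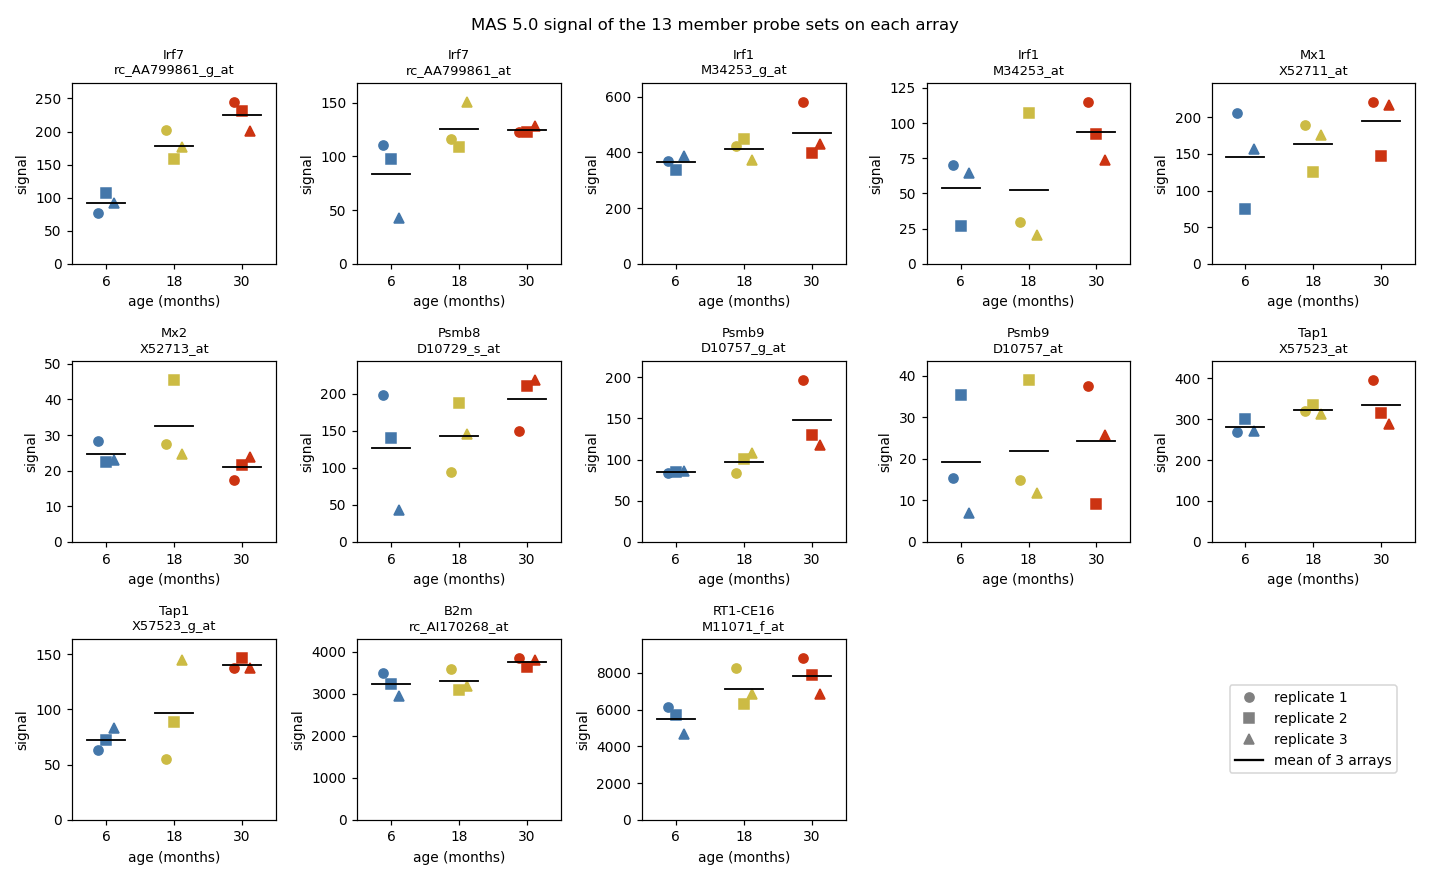
MAS 5.0 signal (linear axes, each from 0) of the 13 member probe sets by age in months; colours mark the ages, symbols the replicate numbers and lines the mean of 3 arrays. *Irf7* rc_AA799861_g_at read 76.8 to 107.1 at 6 months and 201.4 to 244.3 at 30 months, while *Mx1* and *Psmb8* overlapped across ages.

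Among the immunoproteasome subunits, *Psmb9* was higher at 30 months in its stronger probe set. D10757_g_at read 83.1, 84.7 and 85.7 at 6 months, 83.2, 101.1 and 107.8 at 18 months, then 196.4, 129.8 and 117.8 at 30 months. The 30-month arrays lay above all the others, and replicate 1 of 30 months was the highest by a wide margin. The mean was 148 ± 42.3 at 30 months and 84.5 ± 1.31 at 6 months (SD, n = 3 each), a ratio of 1.75 and a log2 difference of 0.60 (SE 0.16), or 0.42 without replicate 1 of 30 months. The difference at 30 against 18 months was 0.46 (SE 0.16), or 0.27 without that array. The companion probe set D10757_at read only 6.9 to 38.9 and showed no separation, with a difference of 0.14 at 30 against 6 months that was -0.03 without replicate 1 of 30 months.

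*Psmb8*, which encodes the other immunoproteasome subunit measured, read 198.2, 140.7 and 42.8 at 6 months, 93.8, 187.7 and 145.7 at 18 months, then 149.9, 209.7 and 218.1 at 30 months. Its ages overlapped and its spread at 6 months was wide. The difference at 30 against 6 months, 0.63 (SE 0.37), was 0.16 without replicate 3 of 6 months, and that at 18 against 6 months, 0.24 (SE 0.37), turned to -0.23 without it. Replicate 1 of 30 months, high in *Psmb9*, was the lowest array of that age in *Psmb8*, and without it the other 2 lay above all arrays of 6 months (0.77).

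*Tap1*, a subunit of the peptide pump, had a pair of probe sets that gave different sizes. X57523_g_at read 62.9, 72.1 and 82.8 at 6 months, 55.2, 88.9 and 145 at 18 months, then 137.8, 146.5 and 137.7 at 30 months. The arrays of 30 months were close together and above all those of 6 months, with a difference of 0.73 (SE 0.22) that was 0.74 without replicate 1 of 30 months; the 18-month arrays spanned nearly the whole range. X57523_at read 269.4, 299.7 and 272.4 at 6 months, 320, 334.3 and 314 at 18 months, then 395.8, 316.5 and 289.4 at 30 months. In it 18 months lay above 6 months without overlap (0.18, SE 0.13), whereas 30 months overlapped 6 months (0.22, SE 0.13, and 0.10 without replicate 1 of 30 months).

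The chains of the class I molecule differed between ages by small factors. *B2m*, the light chain gene, read 3481.4, 3223.3 and 2949.2 at 6 months, 3595.8, 3090.7 and 3190.6 at 18 months, then 3843.2, 3626.9 and 3789.1 at 30 months. The arrays of 30 months lay above all 6 arrays of the younger ages, by 0.22 against 6 months (SE 0.11; 0.21 without replicate 1 of 30 months) and by 0.19 against 18 months (SE 0.11). At 18 against 6 months *B2m* did not separate (0.03, SE 0.11).

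*RT1-CE16*, a class I heavy chain gene, read 6138.9, 5677.5 and 4680.8 at 6 months, 8282.1, 6287.8 and 6845.8 at 18 months, then 8801.2, 7879.1 and 6872.1 at 30 months. Arrays of 18 months and of 30 months lay above all those of 6 months, by 0.37 and 0.51 (SE 0.16 each), and overlapped each other; without replicate 1 of 30 months the difference at 30 months was 0.43. Class I heavy chain genes are near-identical copies, and the probe set M11071_f_at carries the suffix used for probes that match a gene family, so its signal may hold several of them. Probe sets annotated to *RT1-CE16* together with other class I genes, left out by the rule, did not share 1 course: AF074609mRNA_f_at differed by 0.13 (SE 0.11) at 30 against 6 months, M64795_i_at by 0.09 (SE 0.49), and M64795_f_at by 1.55 (SE 0.37), with 233, 390.9 and 117.8 at 30 months, against 71.1, 48.5 and 48 at 6 months.

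Over the 13 probe sets, 12 had a difference above 0 at 30 against 6 months, with a median of 0.49, beside a median of -0.05 over the 5244 tested probe sets, of which 41.2% were above 0. In 8 of the 13, every array of 30 months lay above every array of 6 months; 7.4% of tested probe sets and 5.51% of all probe sets did so. Without replicate 1 of 30 months it was 9 of 13, with a median of 0.42, against 11.7% of tested probe sets. Of the 9 genes, *Irf7* alone passed limma's test at an adjusted p under 0.05, in 1 probe set, as 0.153% of tested probe sets did in that direction and 0.324% in either. That call was lost when any 1 of the 6 arrays of 30 and 6 months was left out, with differences of 0.97 to 1.15. The selection of *Irf7* used this comparison, so nothing is read from these counts. The 10 probe sets that passed the signal filter left out *Mx2* and the weaker probe sets of *Irf1* and *Psmb9*.

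The ages at which the members differed were not the same. At 18 against 6 months 3 of 13 probe sets did not overlap, the first *Irf7* probe set, *Tap1* X57523_at and *RT1-CE16*, against 5.32% of tested and 4.24% of all probe sets in the same direction; none was lower without overlap, as 8.35% of tested probe sets were, and the median was 0.18. At 30 against 18 months 2 were higher without overlap, *Psmb9* D10757_g_at and *B2m*, against 3.18% of tested and 3% of all probe sets, and 1 was lower, *Mx2*, against 4.18% of tested and 5.34% of all probe sets. No member passed limma's adjusted threshold at 18 against 6 months, where 0.0763% of tested probe sets did in either direction, or at 30 against 18 months, where 0.0191% did. Without replicate 1 of 30 months 3 of 13 were higher without overlap at 30 against 18 months, against 7.36% of tested probe sets. The comparisons share arrays and their differences from each other were not tested.

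**Figure D2:**
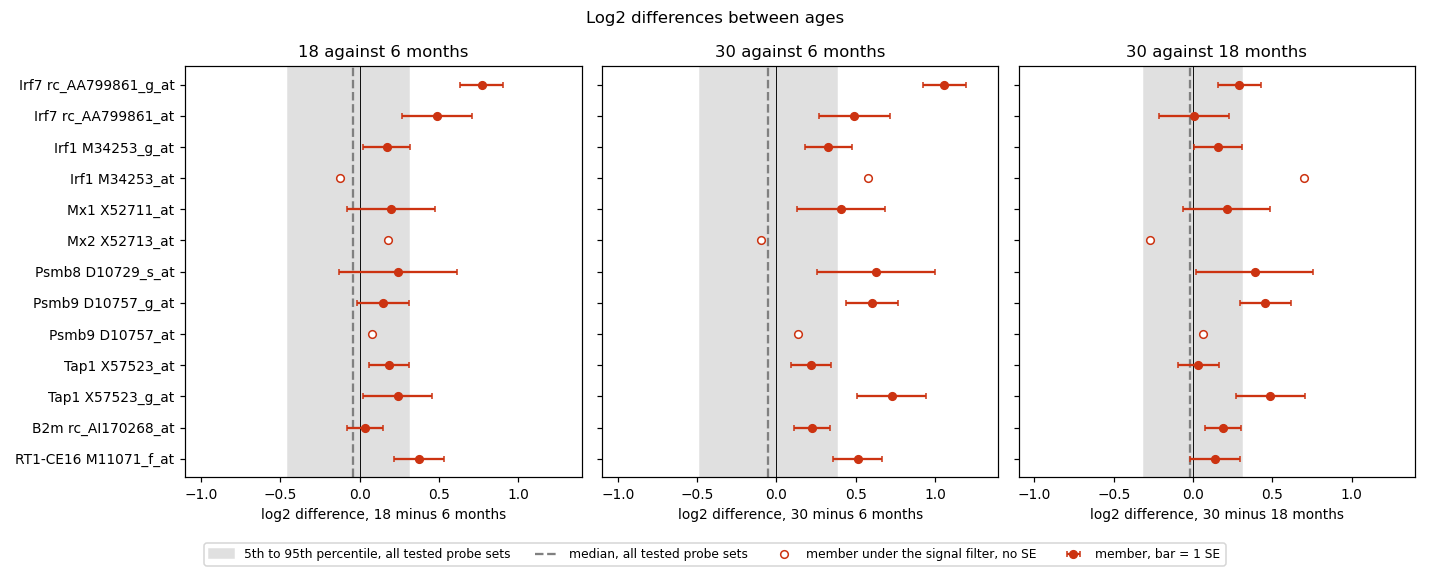
Log2 differences of the 13 probe sets for 18 minus 6, 30 minus 6 and 30 minus 18 months; bars are 1 SE, open points lie under the signal filter, and the grey band holds the 5th to 95th percentile of all tested probe sets (-0.48 to 0.38 at 30 minus 6 months). *Irf7* rc_AA799861_g_at lies at 1.06 in the middle panel, and *Tap1* X57523_g_at at 0.73.

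Replicate 1 of 30 months held the highest signal of 8 of the 13 probe sets, whereas it held the highest of 7.36% of all tested probe sets. Those 8 were the stronger probe sets of *Irf7* and *Psmb9*, both of *Irf1*, and *Mx1*, *Tap1* X57523_at, *B2m* and *RT1-CE16*. The median deviation of the 13 from their 6-month means was 0.16, 0.28 and 0.26 on the arrays of 18 months. At 30 months it was 0.58 on replicate 1, 0.47 on replicate 2 and 0.34 on replicate 3. The same medians over all tested probe sets were -0.06 to 0.01. *Ccl5* read 8.7 on replicate 2 and 15.8 on replicate 3. Some members were chosen with their higher values at 30 months known, so nothing is read from these medians.

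**Figure D3:**
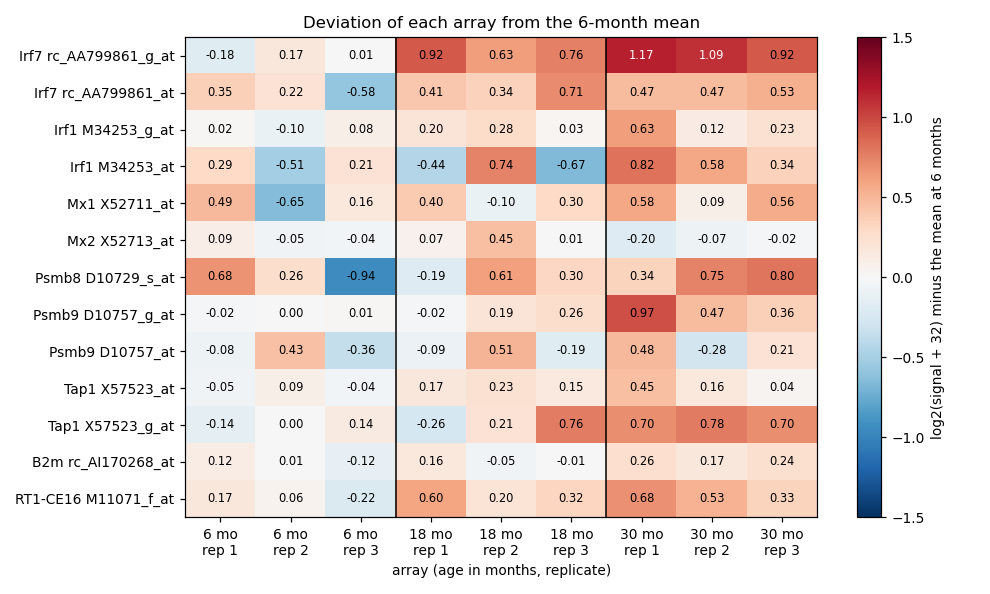
Deviation of log2(signal + 32) from the 6-month mean for each member probe set (rows) on each array (columns, by age and replicate), red for higher and blue for lower. *Irf7* rc_AA799861_g_at is positive on all 6 arrays of 18 and 30 months, and *Psmb9* D10757_g_at is strongest on replicate 1 of 30 months at 0.97.

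Over the 9 arrays the members followed *Irf7* to differing degrees, and many other probe sets followed it as closely as most of them. Ranked by Pearson's r among 5244 tested probe sets, *Mx1* and *Psmb8* stood at percentile 79.1, *B2m* at 93.3 and *RT1-CE16* at 99.5. Pearson's r of log2 signal with *Irf7* rc_AA799861_g_at was 0.85 for *RT1-CE16* (Spearman's rho 0.93), 0.74 for *Tap1* X57523_at (rho 0.75), 0.72 for *Psmb9* D10757_g_at (rho 0.73), 0.65 for *Irf1* M34253_g_at (rho 0.67), 0.64 for *Tap1* X57523_g_at (rho 0.53), 0.62 for *B2m* (rho 0.73), 0.60 for the other *Irf7* probe set (rho 0.62) and 0.33 each for *Mx1* (rho 0.35) and *Psmb8* (rho 0.23). These are descriptions over arrays that fall into 3 ages, and after the age means were removed r was 0.46 for *RT1-CE16*, 0.53 for *Tap1* X57523_at, -0.19 for *Tap1* X57523_g_at, -0.11 for the other *Irf7* probe set, 0.20 for *Psmb9*, 0.06 for *Irf1*, 0.14 for *B2m*, -0.39 for *Mx1* and -0.49 for *Psmb8*. The 5 named genes most like *Irf7* by Pearson's r held none of the interferon lists' genes: *Fmo1* (r 0.97), a flavin monooxygenase, *Spink8* (0.92), a Kazal-type protease inhibitor gene, and, at 0.91 each, *Mtarc2*, a mitochondrial reductase gene, *Rpl35*, a ribosomal protein gene, and *Fam32a*. *Fmo1* read 304.2, 327.8 and 297.1 at 6 months, 439.9, 423.2 and 443.8 at 18 months, then 470.1, 461.7 and 474.7 at 30 months.

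The interferon pathway beyond the members was measured in part. Of 23 listed ligands, receptors and signalling genes 12 were on the array and 8 tested. At 30 against 6 months limma called 0 of them, and at an unadjusted p under 0.05 there were 1 higher and 0 lower, where 4.18% and 8.73% of tested probe sets were. The median difference was -0.18, against -0.05 over all tested probe sets. Without replicate 1 of 30 months limma called 0, and 1 higher and 1 lower had an unadjusted p under 0.05, where 3.32% and 7.48% of tested probe sets did. *Irf3*, the factor that starts the type I interferon response, differed by 0.37 (SE 0.17) and the kinase gene *Jak1* by 0.19 (SE 0.22); both were named by the rule of highest signal.

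The gene at an unadjusted p under 0.05 was *Ifngr1*, the ligand-binding chain of the interferon-γ receptor, named after its values were seen. It read 136, 139.6 and 118.4 at 30 months, against 87.7, 75.2 and 103.8 at 6 months, without overlap (0.44, SE 0.15, limma adjusted p = 0.323). The ligands were weak: *Ifng* read 24 to 77.8 in its stronger probe set and *Ifnb1* 7.1 to 55.7. Of 20 listed sensors and adaptors upstream of interferon 5 were on the array and 2 tested, *Nfkb1* (-0.04, SE 0.19) and *Tbk1* (-0.24, SE 0.21), which encodes a kinase of IRF3 and IRF7. Limma called 0, and 0 had an unadjusted p under 0.05, with or without replicate 1 of 30 months.

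Of 65 listed interferon-induced genes 17 were on the array and 13 tested. At 30 against 6 months limma called 0 of the 13, and at an unadjusted p under 0.05 there were 2 higher and 3 lower, against 4.18% and 8.73% of tested probe sets, with a median of 0.02 against -0.05. Without replicate 1 of 30 months limma called 0 of 12, with 2 higher and 4 lower, against 3.32% and 7.48%, and the median was -0.18. *Oas1a*, an antiviral oligoadenylate synthetase gene, read 654.2, 747.1 and 780.6 at 30 months, against 453.3, 616.6 and 473.2 at 6 months, without overlap (0.48, SE 0.16, limma adjusted p = 0.306; 0.55 without replicate 1 of 30 months). *Oas1a* was also higher without overlap at 18 against 6 months (0.46, SE 0.16). *Ifitm3*, an antiviral membrane protein gene, overlapped between these ages (0.14, SE 0.14).

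The other genes of this list at an unadjusted p under 0.05, named after their values were seen, were *Lgals9* (0.37), *Casp1* (-0.56), *Nos2* (-0.50) and *Vcam1* (-0.445). *Lgals9*, which encodes galectin-9, read 302, 297.7 and 299.5 at 30 months, against 233.1, 221.1 and 218.3 at 6 months. *Casp1*, the inflammatory caspase gene, read 169.6, 192 and 174.5 at 30 months, against 291.4, 275.1 and 270.1 at 6 months in its strongest probe set, and another tested probe set differed by 0.24. *Nos2*, the inducible nitric oxide synthase gene, likewise had another tested probe set on the other side of 0 (0.46, SE 0.51). At 18 against 6 months limma again called 0 of the 13, with 1 higher and 2 lower at an unadjusted p under 0.05, where 2.99% and 5.63% of tested probe sets were, and at 30 against 18 months 0, with 1 higher and 1 lower, where 1.47% and 1.74% were. Without replicate 3 of 30 months limma called 1 of these genes at 18 against 6 and 1 at 30 against 18 months.

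Of the other genes of class I loading and class I chains 15 of 49 listed were on the array and 12 tested. At 30 against 6 months limma called 0, 7 lay above and 5 below 0, the median was 0.13, and 1 gene had an unadjusted p under 0.05, on the higher side, where 4.18% of tested probe sets did. With replicate 1 of 30 months left out limma called 0, no gene had an unadjusted p under 0.05, and the median was 0.06. The 1 gene, named after its values were seen, was *RT1-CE12*, a class I gene whose probe set also carries the family suffix: it read 4096.5, 3753.7 and 2906.7 at 30 months, against 3034.7, 2597.5 and 2390.5 at 6 months with overlap (0.41, SE 0.15, limma adjusted p = 0.331). *Psme1*, a subunit of the proteasome activator PA28, did not separate the ages (-0.02, SE 0.14). *Calr*, the chaperone calreticulin, was higher at 30 months without overlap in its strongest probe set (0.29, SE 0.13), and *Tap2*, the partner subunit of TAP1, named after its values were seen, differed by -0.04 (SE 0.15).

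The standard proteasome subunits, set beside the immunoproteasome, had a median difference of -0.03 at 30 against 6 months over 23 tested genes of 35 listed, 10 above and 13 below 0. Limma called 0 of them, and 2 higher and 0 lower had an unadjusted p under 0.05, against 4.18% and 8.73% of tested probe sets. Leaving out replicate 1 of 30 months gave 0 calls and a median of -0.02. At an unadjusted p under 0.05 there were then 1 higher and 0 lower, against 3.32% and 7.48% of tested probe sets. *Psmb5*, the catalytic subunit that PSMB8 replaces, read 7183.3, 6798.4 and 6419.9 at 30 months, against 7612.7, 7212.2 and 7126.5 at 6 months (-0.11, SE 0.10), and *Psmd1*, a regulatory subunit gene, differed by -0.06 (SE 0.12). The list ran from -0.25 to 0.40. *Psmb9* differed by 0.60 in its stronger probe set and by 0.14 in the weaker. *Psmb8* differed by 0.63 (SE 0.37), or 0.16 without replicate 3 of 6 months. *Psmb9* was chosen with its higher value at 30 months known, and the contrast with the list was not tested.

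Leukocyte markers were examined because leukocytes carry high levels of class I and immunoproteasome genes, and in a bulk sample more cells of a type and more RNA per cell cannot be told apart. Of 44 listed markers 27 were on the array and 14 tested. At 30 against 6 months limma called 0, with 1 higher and 1 lower at an unadjusted p under 0.05, against 4.18% and 8.73% of tested probe sets, and a median of 0.06 against -0.05. Leaving out replicate 1 of 30 months gave 0 calls and a median of -0.09. At an unadjusted p under 0.05 there were then 0 higher and 2 lower, against 3.32% and 7.48% of tested probe sets. The summed signal of the 27 was 3169, 3292 and 3043 at 6 months, 3192, 2358 and 2988 at 18 months, then 3967, 2783 and 2852 at 30 months. Without replicate 1 the sums of 30 months lay below those of 6 months. The strongest markers weigh most in such a sum. The mean log2 of the 27 was 6.63 and 6.70 on replicates 2 and 3 of 30 months, against 6.71 to 6.83 at 6 months. The median of all probe sets was also lower on them, at 104.8 and 112.2 against 120.1 to 124.8. *Lyz2*, a lysozyme gene of macrophages, read 889.8, 676.6 and 641.9 at 30 months, against 420.4, 655 and 613.1 at 6 months (0.38, SE 0.20). *Cd48*, a surface protein gene of leukocytes, lay lower at 30 months without overlap (-0.29, SE 0.14). The markers at an unadjusted p under 0.05, named after their values were seen, were *Clec10a*, a macrophage lectin gene, and *Cd14*, a monocyte receptor gene. *Clec10a* read 116.5, 115.1 and 86.4 at 30 months, against 71.6, 75.6 and 83.8 at 6 months, without overlap (0.33, SE 0.135, limma adjusted p = 0.354). *Cd14* read 203.3, 149.8 and 198.9 at 30 months, against 326.9, 280.6 and 269.4 at 6 months (-0.59, SE 0.19, limma adjusted p = 0.299). Of 18 tested muscle markers limma called 0 at 30 against 6 months, with 5 higher and 0 lower at an unadjusted p under 0.05 against 4.18% and 8.73% of tested probe sets, and a median of 0.18 against -0.05. With replicate 1 of 30 months left out 7 were higher and 0 lower at an unadjusted p under 0.05, against 3.32% and 7.48% of tested probe sets. The median was then 0.23. *Ckm* differed by 0.42 (SE 0.11). Of 4 tested endothelial and epithelial markers limma called 0, and 0 had an unadjusted p under 0.05, with or without that array.

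The markers were not uniformly low. In all, 14 of the 27 on the array passed the signal filter, which by design kept the upper 60% of all probe sets. The count is therefore no sign that the markers were high. Of the T-cell genes, *Lck* (169.6 to 393.2), *Cd4* (128.6 to 165.3), *Cd8b* (98.2 to 143.1) and *Cd5* (81.1 to 124.8) passed it in their strongest probe sets. *Cd3g* (12.2 to 105.4 in its stronger probe set), *Cd8a* (14 to 69), *Cd3d* (17.2 to 33.6) and *Cd2* (3.2 to 42.4) did not. Of the myeloid genes *Lyz2*, *Cd14* and *Clec10a* passed it. *Fcgr2b* (39.2 to 93.8), *Aif1* (35.7 to 56.5 in its strongest probe set), *Csf1r* (21.1 to 59.8) and the integrin gene *Itgam* (1.8 to 25.3) did not. No marker of the list was at 0 on any array, but the lowest signal in all the data was 0.1. The absence of a 0 therefore says nothing about which markers were present. *Gzmb*, a granzyme of cytotoxic lymphocytes, and *Cd53*, a leukocyte tetraspanin gene, read 255.6 and 161.6 on replicate 1 of 30 months, against 95.7 to 176.4 and 55.8 to 99.8 on the other 8 arrays. On that array 8 of the 13 member probe sets, named above, also had their highest signals, those of *Irf7*, *B2m* and *RT1-CE16* included. Leaving that array out lowered the difference at 30 against 6 months from 0.60 to 0.42 in *Psmb9* D10757_g_at. In *Irf1* M34253_g_at it fell from 0.33 to 0.18, and in *Tap1* X57523_at from 0.22 to 0.10. It also fell in *Irf1* M34253_at (0.58 to 0.46), *RT1-CE16* (0.51 to 0.43), *Mx1* (0.41 to 0.32) and *Psmb9* D10757_at (0.14 to -0.03). *Irf7* rc_AA799861_g_at, *Tap1* X57523_g_at and *B2m* had 1.01, 0.74 and 0.21 without that array, and 1.06, 0.73 and 0.22 with it. *Irf7* rc_AA799861_at and *Mx2* had 0.50 and -0.05 without it, and 0.49 and -0.10 with it. In *Psmb8* the difference rose from 0.63 to 0.77. The part of leukocytes was not tested in any of them.

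**Figure D4:**
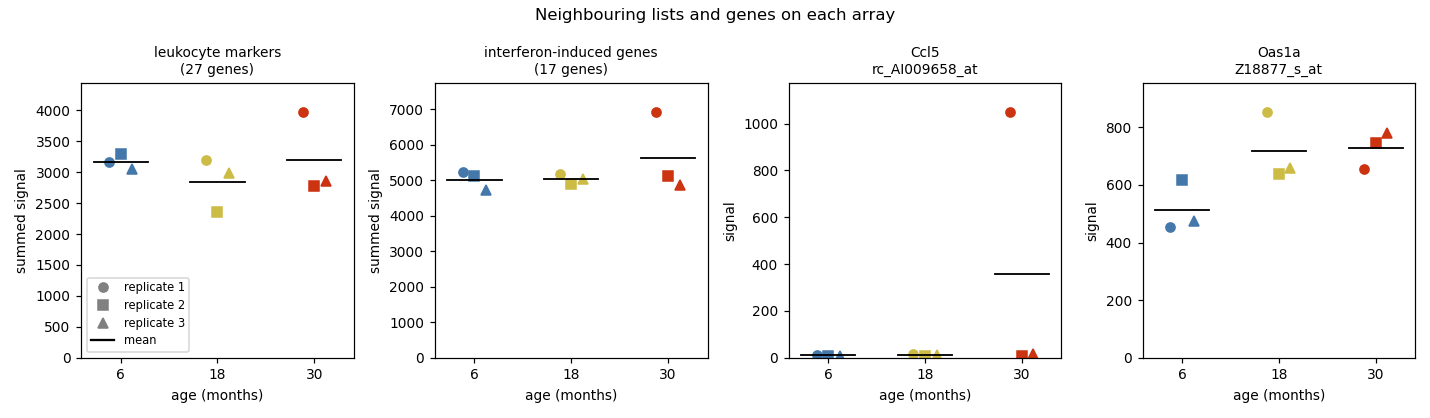
Summed MAS 5.0 signal of 27 leukocyte markers and 17 interferon-induced genes, and signals of *Ccl5* and *Oas1a*, by age in months; symbols mark replicates and lines the mean of 3 arrays. Replicate 1 of 30 months stands at 1048.1 in *Ccl5* and 3967 in the marker sum, while *Oas1a* on that array, 654.2, is the lowest of its age.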

How the data were processed

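Biotinylated cRNA was hybridized to Affymetrix Rat Genome U34 arrays, per the series' design text, and the deposited values are signal intensity on a linear scale that the authors computed with Microarray Suite 5.0 (MAS5 in the submitters' processing notes); the values show that each array was scaled to nearly the same trimmed mean. The sample labels name the dyes Cy3 and Cy5, whereas the design text describes biotinylated samples on single-sample chips; the values were treated as 1 signal per sample. The authors' detection and difference calls were not used here. Of 8799 probe sets 59 controls were left out. Signals were analysed as log2(signal + 32), and the upper 60% of probe sets by mean log2 (cutoff 6.6, 5244 of 8740) were tested with limma 3.58.1 in R 4.3.3, with 1 mean per age over all 9 arrays, two-sided, Benjamini-Hochberg adjusted over 5244, threshold 0.05. With 3 arrays an age, the smallest p an exact permutation test allows is 0.1, and it was not used.

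Names came from the platform's annotation, in which 7006 probe sets have 1 symbol, 308 several and 1426 none; 6985 of the 7006 carry a gene ID found in RefSeq's GRCr8 table. A gene in a list is represented by its tested probe set with the highest mean. The members and lists were chosen with earlier results of these data known. Genes named from a list are the 2 with the highest signal and any past the threshold; others are marked as named after their values were seen. The fit was tested on simulated data. Differences of probe sets under the filter come from the same log2 values without a test. The alternatives were other pseudocounts, filters and normalization, a replicate block, only the ages compared, and each array left out. The number of arrays limits the precision.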

Additional observations from a re-analysis of the deposited data

How the results depend on the processing

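The settings tried were pseudocounts of 8 and 64, no filter, the upper 40% of probe sets, quantile normalization, replicate number as a block, fits of only the ages compared and 9 fits without 1 array. The *Irf7* difference at 30 against 6 months in rc_AA799861_g_at ran from 0.89 (pseudocount 64) to 1.23 (pseudocount 8); it passed limma's adjusted threshold in 9 of 15 alternatives and in none of the 6 without an array of either age. Probe sets called at 30 against 6 months numbered 17, and 11 with the replicate block. At 18 against 6 months there were 4, and 0 with only the 2 ages fitted. At 30 against 18 months there was 1, with 0 under a pseudocount of 64, in the upper 40%, with the replicate block and with only the 2 ages fitted, and 4 without filtering. Without 1 array these counts ran from 0 to 20, 0 to 5 and 0 to 2 for 30 against 6, 18 against 6 and 30 against 18 months; the causes were not tested. Interferon-induced genes called numbered 0, and 0 to 1 without 1 array at 18 against 6 and at 30 against 18 months. The counts of 0 in the signalling, sensor, class I, standard proteasome and leukocyte lists were the same in every fit run. Same-numbered arrays of different ages had deviations correlated at -0.02 to 0.26, over 0.1 in 4 of 9 pairs. Differently numbered arrays had -0.21 to 0.15, over 0.1 in 2 of 18 pairs. A structure shared by replicate number is therefore possible. The main fit did not pair the arrays, and the replicate block was run as an alternative. Differences whose range over the alternatives included both signs were, at 18 against 6 months, *B2m* (-0.03 to 0.09), *Mx1* (-0.13 to 0.44), *Psmb8* (-0.23 to 0.58), *Tap1* X57523_g_at (-0.02 to 0.49) and *Irf1* M34253_at (-0.38 to 0.15), and, at 30 against 18 months, *Tap1* X57523_at (-0.08 to 0.12) and *Irf7* rc_AA799861_at (-0.07 to 0.12). Leaving out replicate 1 of 30 months for the count of members without overlap and for the counts of listed genes was chosen after seeing the data. No background level was measured here, so it is not known how far low signals lie above it; detection calls were not analysed here.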

Other observations

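*Adar*, an interferon-inducible RNA-editing enzyme gene, stood lower at 18 months than at either other age, at 86.8, 86.7 and 96.5 at 6 months, 29.5, 25.3 and 31.8 at 18 months, then 106.7, 133.9 and 66.2 at 30 months. The difference at 18 against 6 months was -1.004 (SE 0.175, limma adjusted p = 0.122) and that at 30 against 18 months 1.11 (SE 0.175, limma adjusted p = 0.171). Some other genes of the interferon pathway had their own course. *Stat2*, a signal transducer of type I interferon, read 148.6, 108.1 and 126.1 at 6 months, 189.3, 147.2 and 159.4 at 18 months, then 114.6, 125.9 and 99.6 at 30 months. At 30 against 18 months it was lower without overlap (-0.44, SE 0.14, limma adjusted p = 0.999). *Tbk1* was lower without overlap at 18 against 6 months, with 113.8, 209.1 and 198.3 at 18 months, against 303.5, 246.5 and 297.3 at 6 months (-0.64, SE 0.21, limma adjusted p = 0.469). *Irf8*, a factor of myeloid cells, read 53.7, 69.4 and 66.6 at 18 months, against 92.2, 98.2 and 79.2 at 6 months. The other tested probe set of *Cd14* differed by -0.63 at 30 against 6 months (SE 0.22, limma adjusted p = 0.327). *Gbp2*, an interferon-γ-induced GTPase gene, read 3.6 to 17.4 and *Cxcl10*, an interferon-induced chemokine gene, 11.6 to 48 over the 9 arrays, so that neither followed *Ccl5* on replicate 1 of 30 months, where they read 7.7 and 45.6. All of these, *Adar* included, were named after their values were seen, none passed the threshold in the main fit of all 9 arrays, and no explanation was tested.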
